A study of Mus musculus with 42 samples.

Results

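Tumour necrosis factor and 9 interleukin genes (Tnf, Il1a, Il1b, Il1rn, Il6, Il10, Il12b, Il18, Il23a and Il27) were followed in RNA-seq counts of bone-marrow-derived macrophages (BMDM), macrophages grown in culture from mouse bone marrow. The genes were chosen by name, and each was matched by its Ensembl identifier to a row of a table of 37310 genes. All 10 were found and passed the filter on low counts that left 11624 genes for testing. Il6 and Il23a, 2 of the 10, passed it only through the libraries treated with lipopolysaccharide (LPS) for 2 h, so their difference there was built into the filter. The other 8 would have passed without those libraries. Of these, Il1a, Il12b and Il27 would then have passed only through the libraries with LPS for 24 h. Without LPS, fewer than the 3 libraries needed reached the cut for each of them. Their LPS differences were thus also tied to the filter.

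The study used 42 libraries in 14 groups of 3. Cells came from male mice labelled WT, the littermate controls, or KO. In the KO mice Irf5, a transcription factor of macrophages, is floxed and Cre is driven by the Lyz2 (LysM) promoter, which is active in myeloid cells at large and not in macrophages alone. Control cells of each genotype, without treatment, were taken at 0, 2 and 24 h. Other cells were given LPS, a component of the wall of Gram-negative bacteria, or palmitate, a saturated fatty acid, for 2 or 24 h. All groups shared the culture in medium conditioned by L929 cells. LPS was given at a single dose, palmitate was given bound to albumin, and whether Control cells received the vehicle is not stated in the sources used here.

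Total counts per library ranged from 2848793 to 7743442, with a median of 5625399, and 3 counts corresponded to 0.397 to 1.14 CPM, the count scaled to library size. The first library of both LPS 2 h groups was the shallowest of its group, with 3091726 counts in WT and 2848793 in KO. Macrophage markers were high in every library, with a summed level of at least 9800.4 CPM. These markers include Lyz2, and their sum was lower in KO than in WT in each condition. At LPS 2 h it was 14416 to 15846 CPM in WT and 11343 to 12137 CPM in KO. Lyz2 alone held 8406 to 9578 CPM of it in WT and 5014 to 5663 CPM in KO. The other markers were not summed apart from Lyz2, so the lower sum does not show that they were lower. Irf5 itself was not lower in the libraries labelled KO. It averaged 278 to 412 CPM in the KO groups and 220.5 to 379.6 CPM in the WT groups, and was called higher in KO in 4 of 7 conditions. These counts were summed over the whole gene, so a loss of the floxed exons was not tested, and WT and KO below mean the libraries labelled WT and KO. Lyz2, the gene whose promoter drives Cre, was lower in KO in 7 of 7 conditions. KO Control 0 h was uneven in it, with 7365, 5377 and 8766 CPM in libraries 1, 2 and 3 against 10146 to 10238 CPM in WT, and no other KO library was above 6159.7 CPM. In bulk libraries, fewer cells that express a gene and less of its RNA per cell cannot be told apart. By the name the study gives it, the Cre allele is a form of Lyz2 itself, and its part in the lower Lyz2 level was not tested.

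These cytokines are released by macrophages when Toll-like receptors detect microbial products. Tnf encodes the prototype of the TNF family. Il1a and Il1b encode the agonists of the interleukin-1 receptor, and Il1rn encodes the antagonist that competes with both for it. Il6 encodes a pleiotropic cytokine of the acute phase. Il12b encodes p40, the subunit shared by interleukin-12 and interleukin-23, Il23a encodes the p19 subunit that is specific to interleukin-23, and Il27 encodes the p28 subunit of interleukin-27. Il10 encodes an anti-inflammatory cytokine, and Il18 encodes an interferon-gamma-inducing cytokine that, like interleukin-1 beta, is made as a precursor and cleaved by caspase-1. LPS acts on Toll-like receptor 4, which signals through NF-kappaB, AP-1 and interferon regulatory factors.

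In the GENCODE annotation of GRCm38 (mm10), a release that may differ from the one the authors counted with, the 3 interleukin-1 genes lie on chromosome 2, with Il1a at chr2:129299610-129309972 and Il1b at chr2:129364570-129371139, both on the minus strand, and Il1rn at chr2:24336853-24351494 on the plus strand. Tnf lies at chr17:35199381-35202007 (minus), Il6 at chr5:30013114-30019981 (plus) and Il10 at chr1:131019845-131024974 (plus). Il12b lies at chr11:44400063-44414033 (plus), Il23a at chr10:128296139-128298752 (minus), Il27 at chr7:126589010-126594941 (minus) and Il18 at chr9:50554827-50581840 (plus). Exons of 4 members overlap those of a gene on the other strand that was counted too. The overlapping genes of Il1a and Il1b (Gm14023 and Il1bos) had at most 8 counts in any LPS 2 h library, whereas Apobr, which overlaps Il27, stood at 100.2 to 138 CPM in those libraries. Il18 is overlapped by Tex12, with at most 1 count there, and by Bco2. At LPS 2 h Bco2 was at 0.716 to 2.06 CPM in WT and 0.216 to 1.90 CPM in KO, a level like that of Il18.

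Promoter windows from RefSeq on GRCm38.p6 (250 bases before the start site and 50 after it) were given for 7 of the 10 members, in 9 windows. Il10, Il23a and Il27 had none. The 250 bases before the start site are shown for Tnf, the member with the highest level under LPS at 2 h, for Il6, a member seen almost only under LPS, and for Il18, the member that LPS did not move past the test, each 5′ to 3′ on the strand of the gene. Capitals mark matches to any of 4 motifs (the NF-kappaB consensus, the paired element of interferon regulatory factors, the AP-1 element TGANTCA and the C/EBP element TTGCNNAA), searched on both strands.

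Tnf, chr17:35202008-35202257 (minus): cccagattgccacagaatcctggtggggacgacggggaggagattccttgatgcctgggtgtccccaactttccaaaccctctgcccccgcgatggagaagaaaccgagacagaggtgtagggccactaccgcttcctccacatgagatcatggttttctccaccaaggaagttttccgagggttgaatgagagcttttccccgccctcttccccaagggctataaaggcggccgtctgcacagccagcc
Il6, chr5:30012864-30013113 (plus): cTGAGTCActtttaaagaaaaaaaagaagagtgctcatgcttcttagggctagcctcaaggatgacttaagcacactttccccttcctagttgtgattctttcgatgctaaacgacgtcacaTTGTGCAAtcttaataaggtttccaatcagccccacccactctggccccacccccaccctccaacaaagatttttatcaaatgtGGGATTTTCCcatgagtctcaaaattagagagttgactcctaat
Il18, chr9:50554450-50554699 (plus): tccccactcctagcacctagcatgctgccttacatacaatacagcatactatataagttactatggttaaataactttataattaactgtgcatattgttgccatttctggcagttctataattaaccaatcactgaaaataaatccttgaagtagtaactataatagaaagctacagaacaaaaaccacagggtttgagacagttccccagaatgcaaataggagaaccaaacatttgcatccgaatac

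The Il6 window held 3 matches. Its AP-1 match (TGAGTCA) lay 249 to 243 bases before the start site, its C/EBP match (TTGTGCAA on this strand) 128 to 121 bases before it, and its NF-kappaB match (GGGATTTTCC) 44 to 35 bases before it. The Tnf, Il1b, Il12b and Il18 windows held no match to these 4 letter patterns, the Il1a window held 1 AP-1 match, and of the 3 Il1rn windows 1 held an AP-1 match and the other two none. Over all 32851 windows of this length, 8.46% held the NF-kappaB consensus, 3.44% the interferon regulatory factor element, 7.81% the AP-1 element and 10.8% the C/EBP element.

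After 2 h of LPS, 9 of the 10 members were increased in WT BMDM and 9 in KO, and none was decreased. The increased members included Il6 and Il23a, which passed the filter only through these libraries, so their calls add no support. Il1a, Il12b and Il27 passed it only through LPS libraries of 2 h or 24 h. Their calls, the count of 9 and the median below are thus tied to the filter as well. Among all genes tested, 14% were called higher in WT and 14.7% in KO (edgeR quasi-likelihood test, Benjamini-Hochberg adjusted p under 0.05). The same genes rose in both genotypes, and Il18 was the exception in each. The median log2 fold change of the members was 5.93 in WT and 6.50 in KO, against -0.01 over all genes in each. With Il23a, which was at 0 in Control, held at its lower bound, the medians were 5.03 and 5.29. In WT 9 of 10 members did not overlap between LPS and Control, as in KO, and 35.2% and 34.1% of all genes tested did not overlap. The list of granulocyte precursor markers moved with LPS as well. It includes Lcn2, which ranged from 1.48 to 421 CPM over all libraries, and the sums at 2 h were not split into Lcn2 and the rest. Of 8 listed 6 were tested, of which 4 were called higher at 2 h in WT and 2 in KO, with a summed level of 20.7 to 37.4 CPM in WT Control and 50.1 to 76.7 CPM with LPS, and 70.9 to 137 CPM and 136 to 242 CPM in KO. Their part in the members' rise was not tested.

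Tnf was at 69.3, 76.6 and 72.9 CPM in WT Control at 2 h and at 2023, 1917 and 2023 CPM after 2 h of LPS. In KO it was at 80.3, 79.8 and 67.7 CPM in Control and at 1976, 1822 and 1920.1 CPM with LPS. All 6 LPS libraries were thus far above all 6 Control libraries. The log2 fold change was 4.77 ± 0.09 (SE) in WT (adjusted p = 2.9e-40, edgeR) and 4.65 ± 0.09 in KO (adjusted p = 8.1e-40, edgeR), a rise of 27.2-fold and 25.1-fold. The plot of levels by library gives the same view of each member.

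**Figure D1:**
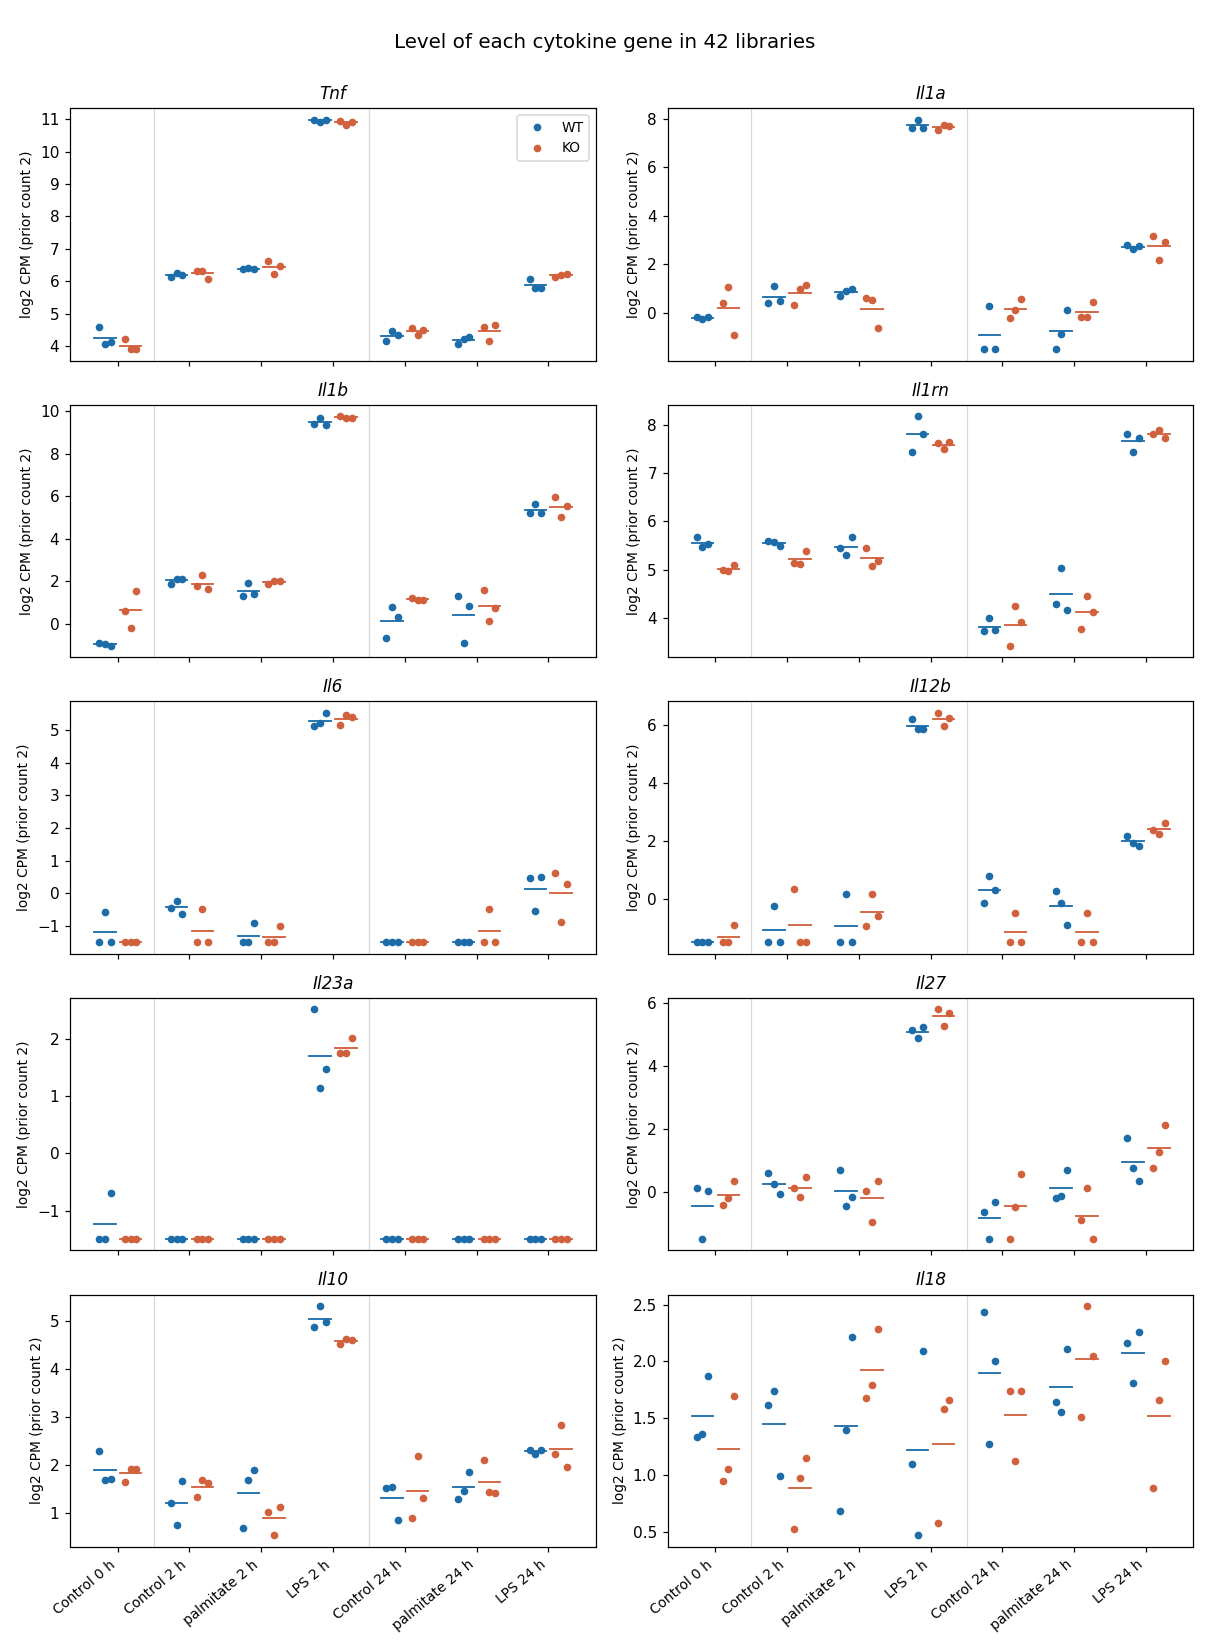
Level of each of the 10 genes in the 42 libraries, as log2 CPM with a prior count of 2 (vertical axis, its range set per gene), by condition (horizontal axis). Points are libraries, horizontal lines are group means (n = 3), blue is WT and orange is KO. Under LPS for 2 h every gene but Il18 was above its Controls, and Il23a was above its lowest plotted level outside those groups in 1 library only.

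The interleukin-1 agonists rose further, from near the limit of detection. Il1b was at 3.29, 3.97 and 4.00 CPM in WT Control and at 686, 832 and 651 CPM with LPS, and in KO at 3.08, 4.48 and 2.71 CPM and then at 875, 839 and 823 CPM. Its log2 fold change was 7.57 ± 0.18 in WT and 7.94 ± 0.19 in KO (adjusted p = 7.0e-36 and 1.9e-36, edgeR). Il1a went from 0.968, 1.82 and 1.04 CPM to 196, 249 and 197 CPM in WT, and from 0.905, 1.61 and 1.87 CPM to 187, 212 and 206 CPM in KO. No LPS library of either gene came near a Control library, and the log2 fold change of Il1a was 7.36 ± 0.24 in WT and 7.08 ± 0.24 in KO (adjusted p = 1.6e-30 and 4.9e-30, edgeR).

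The antagonist gene Il1rn was well expressed before LPS and rose the least of the 9. It was at 48.0, 47.5 and 44.5 CPM in WT Control and at 172, 289 and 223 CPM with LPS, and in KO at 34.9, 34.4 and 41.7 CPM and then at 196, 179.7 and 199 CPM. The groups did not overlap, and the rise was 4.94-fold in WT (log2 2.30 ± 0.14, adjusted p = 1.7e-19, edgeR) and 5.16-fold in KO (log2 2.37 ± 0.15, adjusted p = 2.9e-19, edgeR).

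Il12b, Il23a and Il27 were nearly silent without LPS. Il12b had 0, 3 and 0 counts in WT Control at 2 h and 204, 275 and 307 counts with LPS (73.0, 56.5 and 57.0 CPM), a ratio of 361 with a 95% counting interval of 123 to 1753. In KO it went from 5, 0 and 0 counts to 222, 302 and 342 counts (84.3, 61.2 and 74.0 CPM), with a log2 fold change of 7.85 ± 0.44 (adjusted p = 2.3e-20, edgeR). The Control counts came from 1 library per genotype, and without WT Control 2 h library 2 or KO Control 2 h library 1 the fitted log2 values were 11.44 and 11.67. Counting intervals here and below cover counting error only.

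Il23a was read in 1 library outside the LPS 2 h groups, with 2 counts in WT Control 0 h library 3. Under LPS for 2 h it had 15, 9 and 13 counts in WT (5.37, 1.85 and 2.41 CPM) and 8, 15 and 17 counts in KO (3.04, 3.04 and 3.68 CPM), and all 6 Control 2 h libraries were at 0. Against 3 counts over the Control group, it was at least 17.0-fold higher in WT and at least 18.6-fold higher in KO (adjusted p = 1.1e-04 and 8.9e-05, edgeR).

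Il27 was at 1.16, 0.827 and 0.593 CPM in WT Control and at 34.7, 29.2 and 37.1 CPM with LPS, and in KO at 0.724, 0.537 and 1.02 CPM and then at 55.0, 38.5 and 50.4 CPM. LPS and Control did not overlap, with log2 fold changes of 5.29 ± 0.44 and 5.93 ± 0.44 (adjusted p = 1.8e-14 and 4.5e-16, edgeR). The sources do not say if counting was by strand, so reads of Il27 and of the overlapping Apobr may not have been told apart. At 2 h Apobr was at 73.5 to 86.2 CPM in WT Control and 83.0 to 99.4 CPM in KO Control, where Il27 had 3 to 6 counts. The part of Apobr in the rise of Il27 was not tested.

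Il6 had 2, 3 and 2 counts in WT Control and 96, 179 and 247 counts with LPS (34.3, 36.8 and 45.9 CPM), a log2 fold change of 6.57 ± 0.45 (adjusted p = 1.0e-15, edgeR). In KO it had 0, 2 and 0 counts in Control and 94, 214 and 192 counts with LPS (35.7, 43.4 and 41.5 CPM), a ratio of 349 with a 95% counting interval of 96.0 to 2887. The LPS libraries of both genotypes lay in the same range. The 2 counts were in KO Control 2 h library 2, without which the fitted log2 value was 10.82.

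The anti-inflammatory Il10 rose with the pro-inflammatory members. In WT it was at 1.94, 1.32 and 2.82 CPM in Control and at 29.0, 39.5 and 31.0 CPM with LPS, and in KO at 2.17, 2.86 and 2.71 CPM and then at 22.8, 24.3 and 24.0 CPM. The increase was 16.1-fold in WT (log2 4.01 ± 0.30, adjusted p = 3.5e-16, edgeR) and 9.11-fold in KO (log2 3.19 ± 0.29, adjusted p = 5.9e-13, edgeR), and the groups did not overlap.

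Il18 was low in all groups, between 1.03 and 5.25 CPM, and its LPS and Control libraries overlapped in both genotypes. It was at 1.79, 1.03 and 3.90 CPM in WT with LPS for 2 h and at 2.71, 2.98 and 1.63 CPM in Control, with a log2 fold change of -0.05 (95% interval -0.998 to 0.89). In KO the log2 fold change was 0.60 (95% interval -0.42 to 1.61). With 3 to 21 counts behind each LPS 2 h value, these intervals were wide, and a change of any size within them remained possible. Reads of Il18 and of the overlapping Bco2 may not have been told apart either, since the use of strand in counting is not stated.

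**Figure D2:**
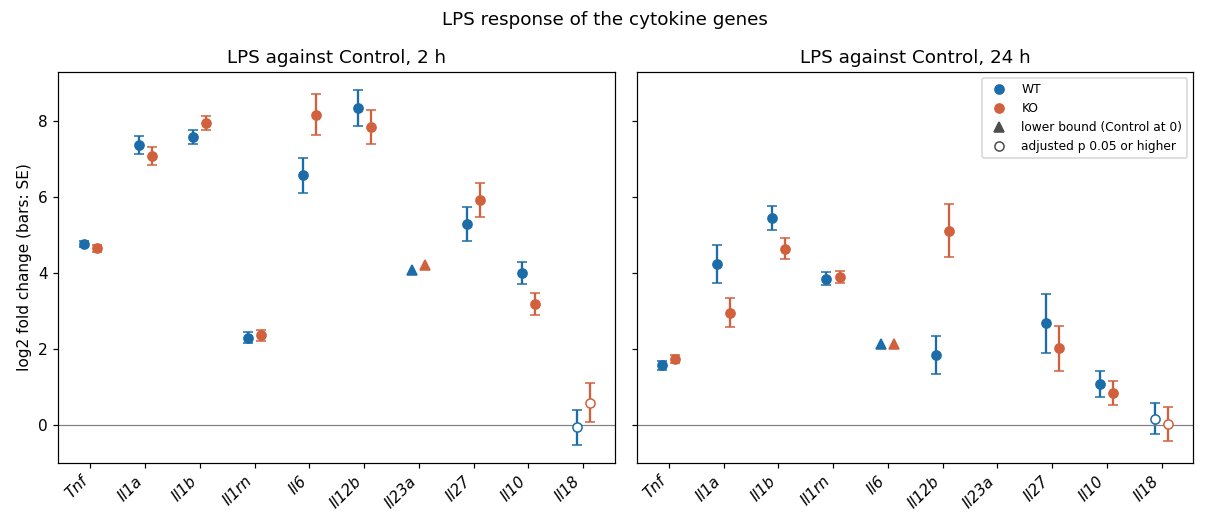
Log2 fold change of LPS against Control of the same time and genotype (vertical axis) for each gene (horizontal axis), at 2 h on the left and 24 h on the right. Circles are edgeR estimates with their SE, filled where adjusted p was under 0.05, and triangles are lower bounds where every Control library was at 0. At 2 h all genes but Il18 were raised in both genotypes, and at 24 h Il23a has no value because it was at 0 in both LPS and Control.

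Levels of different genes were compared per kilobase of annotated exon. The length was the union of all annotated exons of a gene, 5535 bases for Il1rn. The level per kilobase may thus be too low for a gene with several transcripts, here and in the ratio of Il1rn to Il1b below. At 2 h of LPS in WT, Tnf was highest at 1213 CPM per kb, followed by Il1b at 379 and Il1a at 108, and the libraries of these 3 did not overlap. Il1rn (41.2 CPM per kb), Il27 (33.0), Il12b (31.6) and Il10 (25.3) followed, each overlapping its neighbour in the order. Il6 stood below them at 16.1 CPM per kb, and Il18 (2.17) and Il23a (1.43) came last and overlapped. In KO the first 3 and the last 3 places were held by the same genes, Il27 (47.0 CPM per kb) took the fourth place with Il12b (37.2) overlapping it, and Il10 (18.1) overlapped Il6 (16.6). Before treatment (Control 0 h), the order was led by Tnf (11.7 CPM per kb in WT, 9.71 in KO) and Il1rn (8.47 and 5.82).

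After 24 h of LPS, 8 of 10 members were increased over Control of the same time in WT and 8 in KO. The 2 that were not called, in both genotypes, were Il18 and Il23a. Of the 8 called, Il6 passed the filter only through LPS for 2 h, and Il1a, Il12b and Il27 only through LPS libraries. The count and the median below thus rest in part on the filter. Among all genes tested, 19.6% were called higher in WT and 19.9% in KO. The median log2 fold change of the members was 2.26 in WT and 2.49 in KO (2.00 and 2.08 with genes at their bounds), against -0.01 over all genes in each. LPS and Control did not overlap for 8 members in WT and 7 in KO, where 48.1% and 50.2% of all genes tested did not overlap. Of the granulocyte precursor markers, Lcn2 was called higher and 3 were called lower in WT and 4 in KO. The summed level went from 58.7 to 65.5 CPM in Control to 339 to 451 CPM in WT, of which Lcn2 held 347 CPM on average, and from 137 to 219 CPM to 331 to 399 CPM in KO, and its part was not tested.

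Most members had fallen far below their 2 h level by then. Tnf with LPS was at 67.3, 55.3 and 55.7 CPM in WT and at 70.4, 73.2 and 74.1 CPM in KO, against 17.7, 21.6 and 19.8 CPM and 23.1, 20.05 and 22.2 CPM in Control. It was still above Control at 24 h in all 6 libraries, with a log2 fold change of 1.57 ± 0.12 in WT and 1.74 ± 0.11 in KO (adjusted p = 2.4e-16 and 1.2e-18, edgeR). In WT the 3 libraries with LPS for 24 h lay below all 3 Control libraries of 2 h, and in KO they overlapped with them.

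Il1b was at 36.8, 50.1 and 37.0 CPM in WT and at 62.6, 31.9 and 46.3 CPM in KO after 24 h of LPS, with 0.281 to 1.37 CPM in WT Control and 1.82 to 1.99 CPM in KO Control. Its log2 fold change of 5.45 ± 0.31 in WT and 4.65 ± 0.26 in KO came with no overlap between LPS and Control (adjusted p = 1.4e-20 and 8.9e-21, edgeR). Il1a was at 6.50, 5.79 and 6.43 CPM in WT and at 8.50, 4.11 and 7.17 CPM in KO, and all 6 libraries were above their Controls. The WT Control of Il1a at 24 h held 5 counts, all in library 2. With that library its log2 fold change was 4.25 ± 0.50 (adjusted p = 5.1e-10, edgeR), without it the fitted value was 8.15, and in KO it was 2.97 ± 0.39 (adjusted p = 1.2e-08, edgeR).

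Il1rn had not fallen. It was at 225, 172 and 211 CPM in WT and at 224, 237 and 210.2 CPM in KO after 24 h of LPS, while Control at 24 h was at 12.9, 15.6 and 13.1 CPM in WT and at 10.4, 18.8 and 14.7 CPM in KO. The increase over Control was 14.5-fold in WT (log2 3.86 ± 0.17, adjusted p = 1.9e-25, edgeR) and 14.9-fold in KO (log2 3.90 ± 0.16, adjusted p = 5.0e-26, edgeR).

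The other members were low at 24 h. Il12b was at 4.11, 3.48 and 3.22 CPM in WT (log2 fold change 1.85 ± 0.49, adjusted p = 0.0020, edgeR) and at 4.77, 4.29 and 5.71 CPM in KO, a ratio of 41.2 to the 2 counts of KO Control with a 95% counting interval of 11.1 to 346. Il6 had 6, 2 and 7 counts in WT and 8, 1 and 6 counts in KO with all 6 Control libraries at 0, so it was at least 4.41-fold higher in WT and at least 4.39-fold higher in KO (adjusted p = 0.0016 and 0.0015, edgeR). Both genes were above Control at 24 h and below their own 2 h level under LPS in all 6 libraries. Without KO Control 24 h library 2, which held the 2 counts, the fitted log2 value of Il12b in KO was 7.81.

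Il10 and Il27 were the least certain of the 8. Il10 was at 4.62, 4.30 and 4.59 CPM in WT (log2 fold change 1.08 ± 0.34, adjusted p = 0.0097, edgeR) and at 4.32, 6.72 and 3.51 CPM in KO (0.85 ± 0.33, adjusted p = 0.033, edgeR), where 1 Control library, at 4.19 CPM, lay within the LPS range. The WT call was lost without WT Control 24 h library 3 (adjusted p = 0.10, edgeR), and the KO call without KO Control 24 h library 1 or 3 or KO LPS 24 h library 2 (adjusted p = 0.16, 0.16 and 0.23, edgeR). Il27 was at 2.91, 1.32 and 0.919 CPM in WT (2.68 ± 0.77, adjusted p = 0.0042, edgeR) and at 1.34, 2.05 and 3.95 CPM in KO (2.02 ± 0.60, adjusted p = 0.0049, edgeR). Its call was lost without WT LPS 24 h library 1 (adjusted p = 0.056, edgeR) and without KO LPS 24 h library 3 (adjusted p = 0.088, edgeR), and its fitted value in WT was 3.73 without WT Control 24 h library 3 and 2.09 without library 2, and in KO 3.43 without KO Control 24 h library 3.

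The response to LPS at 24 h was set against that at 2 h in the same model, each relative to Control of its own time. It differed for 6 members in WT and 6 in KO, where 32.6% and 33.4% of all genes tested were called in either direction. Tnf, Il1a, Il1b and Il10 were lower at 24 h in both genotypes, with Il12b in WT and Il27 in KO. Il1rn was the 1 member with a larger response at 24 h. For Tnf the difference was -3.19 ± 0.15 (log2) in WT and -2.91 ± 0.15 in KO (adjusted p = 8.6e-23 and 8.8e-22, edgeR), and for Il10 it was -2.93 ± 0.48 and -2.34 ± 0.45 (adjusted p = 2.2e-06 and 4.1e-05, edgeR).

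Some of these differences rested on a single Control library of few counts. For Il1a in WT the difference of -3.11 became 0.79 without WT Control 24 h library 2, and for Il1b in WT, -2.12, the call was lost without library 2 or 3 of that group (adjusted p = 0.21 and 0.068, edgeR). For Il27 in KO the difference of -3.90 became -2.48 without KO Control 24 h library 3 (adjusted p = 0.28, edgeR), and for Il12b in WT the difference of -6.50 became -9.58 without WT Control 2 h library 2. LPS at 24 h was therefore also set directly against LPS at 2 h, a comparison added after the data had been seen, in which Control plays no part. There 8 of 10 members were lower at 24 h in each genotype, where 24.9% of all genes in WT and 25.6% in KO were called lower. The lower members included Il6 and Il23a, whose high level at 2 h was built into the filter. The log2 level was lower by 5.07 for Tnf, 5.10 for Il1a, 4.13 for Il1b and 2.88 for Il10 in WT.

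In this direct comparison Il1rn, which had the larger net response at 24 h (1.56 ± 0.23 in WT and 1.53 ± 0.23 in KO, adjusted p = 1.7e-07 and 2.7e-07, edgeR), differed by -0.18 in WT and 0.23 in KO (adjusted p = 0.23 and 0.13, edgeR). Its LPS libraries overlapped between the times in WT, and in KO all 3 libraries at 24 h lay above all 3 at 2 h. Il1rn was lower in Control at 24 h than in Control at 0 h, by 1.74 ± 0.19 on the log2 scale in WT and by 1.11 ± 0.19 in KO (adjusted p = 9.8e-10 and 4.5e-05, edgeR), from 50.5, 44.0 and 46.2 CPM in WT and 31.4, 31.2 and 34.0 CPM in KO at 0 h. No library of Control 24 h overlapped with Control 0 h.

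The ratio of Il1rn to Il1b per kilobase changed sides between the times. With LPS for 2 h it was 0.0862 to 0.119 in the WT libraries and 0.0738 to 0.0834 in the KO libraries, so that the agonist gene was the higher in all 6. With LPS for 24 h it was 1.18 to 2.11 in WT and 1.23 to 2.56 in KO, so that the antagonist gene was the higher in all 6. In Control at 2 h the ratio was 3.83 to 5.03 in WT and 2.65 to 5.30 in KO.

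**Figure D3:**
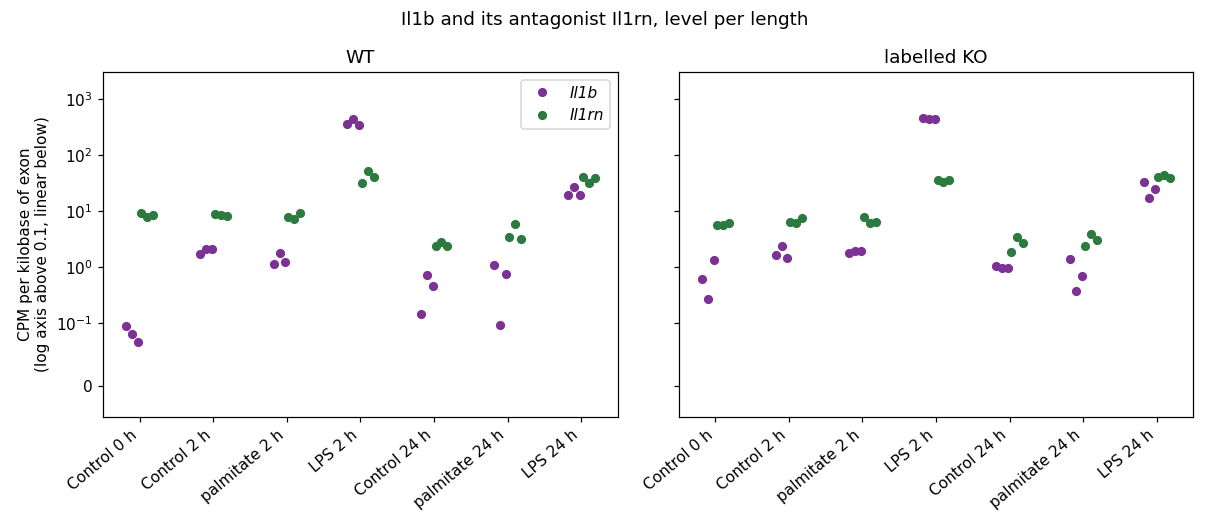
Il1b and Il1rn in CPM per kilobase of exon (vertical axis, logarithmic above 0.1) in each library by condition (horizontal axis), WT on the left and KO on the right. Each point is 1 library, purple for Il1b and green for Il1rn. Il1b was above Il1rn in every library under LPS for 2 h and below it in every other library.

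Culture without LPS changed a few members as well. Comparing Control at 2 h with Control at 0 h, 2 members were higher in WT and 1 in KO, where 8.41% and 6.5% of all genes were called higher. Tnf rose from 23.9, 16.4 and 17.2 CPM to the 69.3 to 76.6 CPM given above in WT and from 18.3, 14.7 and 14.8 CPM to 67.7 to 80.3 CPM in KO. The groups did not overlap, and the increase was 3.85-fold in WT (log2 1.95 ± 0.11, adjusted p = 2.1e-19, edgeR) and 4.78-fold in KO (log2 2.26 ± 0.12, adjusted p = 9.7e-21, edgeR). Il1b in WT had 1 count in each Control 0 h library and 17, 24 and 27 counts at 2 h, a ratio of 24.5 with a 95% counting interval of 8.04 to 122 (adjusted p = 6.9e-06, edgeR), and in KO it had 6, 3 and 14 counts and then 17, 25 and 16 (log2 1.28 ± 0.49, adjusted p = 0.081, edgeR).

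At 24 h, Tnf in Control was back at 17.7 to 21.6 CPM in WT and at 20.05 to 23.1 CPM in KO. Against Control at 0 h, 2 members were called in WT and 2 in KO, where 12.1% and 8.17% of all genes were called in either direction. Beside the lower Il1rn, these were Il12b in WT (0 counts at 0 h, and 2, 8 and 6 at 24 h, at least 6.37-fold higher, adjusted p = 0.0039, edgeR) and Tnf in KO (1.37-fold, log2 0.46 ± 0.14, adjusted p = 0.035, edgeR). The Tnf call was lost without KO Control 0 h library 2 or 3 or KO Control 24 h library 1 or 3 (adjusted p from 0.11 to 0.16, edgeR).

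Palmitate moved none of the 10 members past the test, in either genotype or at either time (0 calls in 4 edgeR comparisons). The share of all genes called was small too, at 0.275% and 0.852% in WT at 2 and 24 h and 0.112% and 0.877% in KO. Unadjusted p-values under 0.05 numbered 1, 1, 2 and 0 in the same order, and DESeq2 gave 2, 1, 2 and 0 and called 0, 1, 0 and 0 members. The palmitate and LPS comparisons share their Control libraries. Tnf with palmitate for 2 h was at 82.9, 84.8 and 82.1 CPM in WT, each above the 3 Controls, and at 99.3, 73.9 and 88.2 CPM in KO, where the groups overlapped. Its log2 fold change was 0.19 (95% interval 0.00 to 0.38, adjusted p = 0.66, edgeR) in WT and 0.20 (0.01 to 0.38) in KO, where it did not pass either.

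The 1 member that DESeq2 called was Il1rn with palmitate for 24 h in WT. It was at 19.4, 32.5 and 17.7 CPM against 12.9, 15.6 and 13.1 CPM in Control, so the groups did not overlap. The log2 fold change was 0.73 ± 0.21 (adjusted p = 0.082 in edgeR and 0.038 in DESeq2), and in KO it was 0.22 (95% interval -0.20 to 0.64). Il18 with palmitate for 2 h in KO was at 2.85, 3.11 and 4.52 CPM, above the 1.09, 1.61 and 1.87 CPM of Control, with a log2 fold change of 1.19 ± 0.45 (adjusted p = 0.94, edgeR). In edgeR no other member reached an unadjusted p under 0.05 with palmitate. In DESeq2 Il6 at 2 h in WT did as well (unadjusted p = 0.049, with no adjusted p given), at 1 count with palmitate against 7 in Control, and Il23a was at 0 in every palmitate library.

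In the comparison of the libraries labelled KO with those labelled WT, 2 of 10 members were called in Control at 0 h, where 12.5% of all genes were called. In the other 6 conditions 0 members were called by edgeR and 0 by DESeq2, where between 0.0688% and 0.49% of all genes were called (0.49% for Control 2 h, 0.146% for palmitate 2 h, 0.465% for LPS 2 h, 0.12% for Control 24 h, 0.0688% for palmitate 24 h and 0.146% for LPS 24 h). Unadjusted edgeR p-values under 0.05 numbered 1, 0, 3, 1, 2 and 1 in these 6, and DESeq2 gave 0, 0, 2, 2, 3 and 1.

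At LPS 2 h, the intervals were narrow for the abundant members. The log2 difference of KO from WT was -0.06 for Tnf (95% interval -0.21 to 0.09) and -0.09 for Il1a (-0.36 to 0.19). Il1b was higher by 0.22 (0.01 to 0.44) and Il1rn lower by 0.27 (-0.52 to -0.01), both with overlapping groups (adjusted p = 0.42 and 0.41, edgeR). Il10 and Il27 were the 2 members whose groups did not overlap, where 12.8% of all genes did not. Il10 was lower in KO, with the values of 29.0 to 39.5 CPM in WT and 22.8 to 24.3 CPM in KO given above (log2 -0.49, 95% interval -0.96 to -0.01, adjusted p = 0.42, edgeR), and Il27 stood at 29.2 to 37.1 CPM in WT and 38.5 to 55.0 CPM in KO (0.50, -0.09 to 1.10, adjusted p = 0.52, edgeR).

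The remaining members under LPS for 2 h were read less closely. The interval was -0.52 to 0.61 for Il6, -0.24 to 0.71 for Il12b, -1.19 to 1.40 for Il23a and -1.02 to 1.02 for Il18, so differences of any size between these limits remained possible. The summed level of granulocyte precursor markers, Lcn2 included, was 50.1 to 76.7 CPM in WT and 136 to 242 CPM in KO at LPS 2 h. That of fibroblast markers was 0.371 to 0.716 CPM in WT and 0.759 to 152 CPM in KO. Their part in these differences was not tested.

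At LPS 24 h, Tnf was at 55.3 to 67.3 CPM in WT and 70.4 to 74.1 CPM in KO, a log2 difference of 0.29 (95% interval 0.10 to 0.48) with an unadjusted p of 0.0038 and an adjusted p of 0.26 (edgeR). Tnf and Il12b were the 2 members whose groups did not overlap, where 13.4% of all genes did not, and Il12b differed by 0.46 (-0.25 to 1.18). Il1b (0.20, -0.09 to 0.49) and Il1rn (0.14, -0.11 to 0.38) had intervals on both sides of 0, as did Il1a, Il6, Il10, Il18 and Il27. At LPS 24 h fibroblast markers summed to 0.171 to 2.48 CPM in WT and 0.560 to 174.9 CPM in KO. Granulocyte precursor markers, Lcn2 included, summed to 339 to 451 CPM in WT and 331 to 399 CPM in KO. The part of both lists was not tested.

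**Figure D4:**
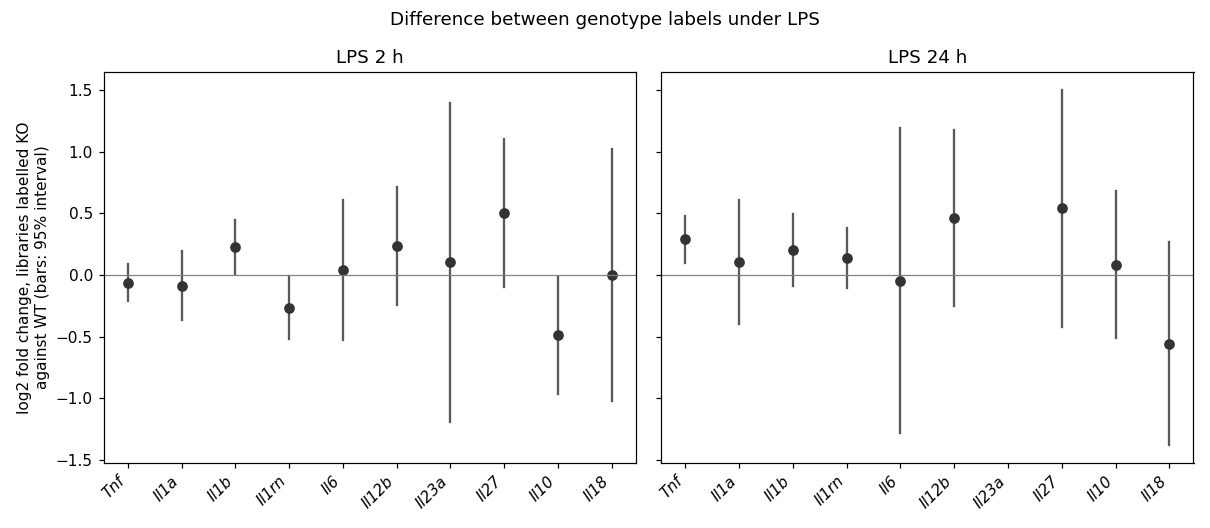
Log2 difference of the libraries labelled KO from WT (vertical axis) under LPS for 2 h and 24 h, for each gene (horizontal axis). Points are edgeR estimates and bars their 95% intervals. None passed the adjusted threshold, and Il23a has no value at 24 h because it was at 0 in both groups.

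The difference between genotypes in the response to LPS or palmitate (4 interaction tests) was called for 0 of 10 members in edgeR and in DESeq2. Among all genes, 0% were called for LPS at 2 h, 0.0086% for LPS at 24 h and 0% for palmitate at 2 h and at 24 h. Unadjusted p-values under 0.05 numbered 0, 1, 0 and 1 in both tools. The 2 were Il27 for palmitate at 24 h (log2 -2.60 ± 1.29) and, for LPS at 24 h, Il12b (log2 3.27 ± 1.05, adjusted p = 0.92, edgeR), where the Controls held 2, 8 and 6 counts in WT and 0, 2 and 0 in KO, a WT to KO ratio of 8.16 with a 95% counting interval of 1.92 to 73.1.

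The 2 calls in untreated cells at 0 h were both in the interleukin-1 pair. They were 2 of 10 members, near the 12.5% of all genes called in this condition. The number of calls thus did not set the members apart from other genes. Il1b had 1 count in each WT library (0.181, 0.158 and 0.132 CPM) and 6, 3 and 14 counts in KO (1.18, 0.514 and 2.52 CPM), a KO to WT ratio of 9.03 with a 95% counting interval of 2.73 to 47.0 (adjusted p = 0.028, edgeR). Il1rn was at 50.5, 44.0 and 46.2 CPM in WT and at 31.4, 31.2 and 34.0 CPM in KO (log2 -0.54 ± 0.16, adjusted p = 0.020, edgeR). Neither gene overlapped between genotypes, where 28% of all genes did not, and the ratio of Il1rn to Il1b per kilobase was 96.1 to 120.2 in WT and 4.65 to 20.9 in KO.

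Both calls depended on single libraries. KO library 3, with 14 of the 23 Il1b counts, was also the KO library whose Lyz2 level lay nearest to WT. The Il1b call was lost without KO Control 0 h library 3 or any 1 of the 3 WT libraries (adjusted p = 0.26, 0.066, 0.069 and 0.10, edgeR), and the Il1rn call without KO Control 0 h library 1 or 2 or WT Control 0 h library 1 (adjusted p = 0.073, 0.064 and 0.076, edgeR). At 2 h of Control, Il1rn stood at 44.5 to 48.0 CPM in WT and 34.4 to 41.7 CPM in KO (log2 -0.33, adjusted p = 0.47, edgeR), and Il1b overlapped. The KO libraries of Control 0 h also differed in markers of other cells. The summed level of 6 fibroblast markers was 42.1 to 69.3 CPM in KO and 0.529 to 0.905 CPM in WT, made up of collagens (Col1a1, Col1a2, Col3a1) with Dcn, Pdgfra and Lum at or near 0, and that of granulocyte precursors was 81.5 to 87.7 CPM in KO and 50.8 to 61.3 CPM in WT. Their part in the 2 calls was not tested.

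Genes that act with these cytokines were taken from lists chosen by function. For the lists, here and below, it was not checked which genes passed the filter only through LPS libraries. Calls of genes nearly silent without LPS may thus be tied to the filter. Of 8 genes of partner subunits, processing and inhibitors, 7 were tested, and LPS at 2 h raised 4 in WT and 5 in KO and at 24 h 5 in WT and 6 in KO, with 1 lower in KO at 24 h (Il1rap). Among all genes tested, 14% and 14.7% were called higher and 9.1% and 9.16% lower at 2 h in WT and KO, and 19.6% and 19.9% higher and 19.9% and 21% lower at 24 h. The median log2 change of this list was 0.32 in WT and 0.42 in KO at 2 h and 1.22 and 1.23 at 24 h, against -0.01 over all genes in each. Casp4, the caspase that senses cytosolic LPS, rose from 9.64 to 44.8 CPM at 2 h in WT (log2 2.19, adjusted p = 1.1e-15, edgeR). Ebi3, the partner of p28 in interleukin-27, was at 47.2 CPM in Control and 63.7 CPM with LPS at 2 h, and at 40.4 and 94.5 CPM at 24 h (log2 0.44 and 1.22). Il18bp, the decoy that binds interleukin-18, rose at 24 h from 21.9 to 60.0 CPM in WT and from 19.4 to 58.1 CPM in KO (log2 1.44 and 1.57), while Il18 itself was not called. Il12a, the p35 partner of p40, reached 1.80 CPM in WT and 2.71 CPM in KO at 2 h.

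Of 15 receptor genes, 12 were tested. LPS raised 3 and lowered 1 at 2 h in each genotype, and at 24 h it raised 5 and lowered 2 in WT and raised 4 and lowered 3 in KO. Among all genes tested, 14% in WT and 14.7% in KO were called higher at 2 h, and 19.6% and 19.9% at 24 h. The lowered receptors were near the share of all genes called lower, 9.1% and 9.16% at 2 h and 19.9% and 21% at 24 h. The median log2 change was 0.38 at 2 h and 0.35 at 24 h in WT and 0.26 and 0.15 in KO. Tnfrsf1b, the second TNF receptor, rose from 807 to 1891 CPM in WT at 2 h (log2 1.23), and Il10ra, the ligand-binding chain for interleukin-10, from 125 to 208 CPM (log2 0.73). Il6ra fell from 57.1 to 35.6 CPM at 2 h (log2 -0.65), and Il6st, its signalling partner, rose from 62.6 to 86.6 CPM at 2 h and fell from 57.4 to 33.1 CPM at 24 h (log2 0.46 and -0.79). Il12rb1 and Il23r, the chains of the interleukin-23 receptor, were higher at 24 h in WT, at 4.84 and 4.35 CPM with LPS against 0.833 and 0.114 CPM in Control.

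Of 23 other interleukins and TNF family ligands, 22 were in the table and 10 were tested. At 2 h LPS raised 5 and lowered 1 in WT and raised 6 and lowered 1 in KO, and at 24 h it raised 5 in WT and raised 3 and lowered 1 in KO. Among all genes tested, 14% in WT and 14.7% in KO were called higher at 2 h, and 19.6% and 19.9% at 24 h. The 1 lowered at 2 h was near the share of all genes called lower (9.1% in WT and 9.16% in KO). At 24 h that share was 19.9% and 21%. The median log2 change was 1.21 at 2 h and 1.01 at 24 h in WT and 1.30 and 0.76 in KO. Tnfsf9, the ligand of 4-1BB, rose from 2.03 to 184 CPM at 2 h in WT (log2 6.50, adjusted p = 4.9e-30, edgeR). Lif, a cytokine of the interleukin-6 family, rose from 0.110 to 21.1 CPM, and Tnfsf15 from 1.93 to 24.5 CPM. Il16, a chemoattractant for CD4 cells, fell from 24.2 to 10.3 CPM (log2 -1.18).

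Other genes followed nearly the same pattern over the 14 groups as most members did. The 2 genes outside the list with the highest Pearson r over the 14 group means of log2 CPM were Nfkbia and Zc3h12a for Tnf (0.995 and 0.993), Jak2 and Birc3 for Il1b (0.996 and 0.995), Irf1 and Cd40 for Il1a (0.991 and 0.989) and Tnfaip2 and Nfkbib for Il6 (0.990 and 0.989). For Il10 they were Ccl3 and Klf7 (0.982 and 0.979), for Il12b Foxp4 and Samsn1 (0.984 and 0.984), for Il27 Slc39a14 and Nfkbib (0.993 and 0.993), for Il23a Ppp1r15a and Klf6 (0.994 and 0.994) and for Il1rn Mgrn1 and Rap1b (0.982 and 0.980). Il18 had no neighbour as close (Dhrs13 at 0.811 and Rrp36 at 0.809). All points share the same 42 libraries, and for most members the LPS 2 h groups stand far from the others. Ranked by Spearman's rho instead, 2 of the 20 neighbours stayed among the closest 2.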

How the data were processed

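RNA was sequenced from 42 BMDM libraries in 14 groups of 3. The authors deposited raw read counts per gene on mm10, and the submitters' processing notes name fastp 0.19.11 and STAR 2.7.3a. The annotation release and the use of strand in counting are not given in the sources used here, and the study's own test was DESeq2.

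Column names in the table give the group and not the replicate, so library numbers follow column order and only name a library. Where nothing says that libraries came from separate animals or cultures, p-values measure the spread between these libraries. Libraries within a group differed by more than counting noise.

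One edgeR 4.0.16 quasi-likelihood model (R 4.3.3) was fitted to all 42 libraries with TMM scaling, after filterByExpr (1.78 CPM in at least 3 libraries). P-values were adjusted by Benjamini-Hochberg over 11624 genes, with 25 comparisons adjusted separately, and called under 0.05. The SE was derived from the F statistic as log2 fold change over its root. Levels were CPM on TMM library sizes, and bounds use 3 counts over a group. The fit was tested on simulated data. Alternatives were RLE scaling, no filter, only the compared libraries, DESeq2 1.42.0 and leaving out each library. The members and gene lists were chosen with earlier results of these data known. All members were named, list genes in order of adjusted p, and the 2 closest genes per member by Pearson r.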

Additional observations from a re-analysis of the deposited data

Results flagged for a closer look

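The LPS response differed between 24 h and 2 h, each against Control of its time, for 6 members in WT and 6 in KO by an interaction term in edgeR. In WT the log2 difference was -3.19 for Tnf, -3.11 for Il1a, -2.12 for Il1b, 1.56 for Il1rn, -2.93 for Il10 and -6.50 for Il12b (adjusted p = 8.6e-23, 0.022, 0.018, 1.7e-07, 2.2e-06 and 2.4e-07). In KO it was -2.91 for Tnf, -4.12 for Il1a, -3.29 for Il1b, 1.53 for Il1rn, -2.34 for Il10 and -3.90 for Il27 (adjusted p = 8.8e-22, 7.0e-06, 4.5e-06, 2.7e-07, 4.1e-05 and 0.00079). Il12b in KO (-2.72, adjusted p = 0.27) and Il27 in WT (-2.61, adjusted p = 0.11) did not pass, and the difference between genotypes in this time difference was not tested. Il1a in WT turned positive (0.79) without WT Control 24 h library 2.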

How the results depend on the processing

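No paired analysis was possible because the columns of the count table carry no replicate numbers. RLE scaling kept every count of called members within 1.5 times its main value. With no filter or with DESeq2, 1 member (Il1rn) was called for palmitate at 24 h in WT in place of 0, and 2 in place of 1 for Control 2 h against 0 h in KO. With only the compared libraries fitted, 5 members were called in place of 8 for LPS at 24 h in KO, since Il6 and Il27 were not tested there and Il10 missed the threshold. That fit called 1 in place of 2 for Control 24 h against 0 h in WT and in KO, and 1 in place of 2 for KO against WT in Control 0 h. Leaving out 1 library gave 0 to 1 calls for palmitate at 24 h in WT, 1 to 2 for Control 2 h against 0 h in KO, 1 to 2 for Control 24 h against 0 h in KO, and 0 to 1 for KO against WT in Control 0 h, with 0 without WT Control 0 h library 1.

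Directions turned for the LPS time difference of Il1a in WT (-3.85 to 0.79 over left-out libraries) and of Il1rn in WT (-0.18 when LPS groups were compared directly, where Control drops out). Among differences of KO from WT that were not called, the range over left-out libraries at LPS 2 h was -0.15 to 0.037 for Il1a, -0.038 to 0.18 for Il6, -0.39 to 0.79 for Il18 and -0.19 to 0.60 for Il23a. At LPS 24 h it was -0.12 to 0.32 for Il1a, -0.070 to 0.39 for Il1b, -0.51 to 0.33 for Il6, -0.21 to 0.27 for Il10 and -0.024 to 1.13 for Il27. Il18 at LPS 2 h was also at 0.0031 with RLE scaling, 0.0025 with DESeq2 and 0.12 without the 2 shallowest libraries. Where no construction is named, the cause was not tested. With 3 libraries a group and 3 counts worth up to 1.14 CPM, changes of Il18, Il23a and the resting levels of Il6 and Il12b were limited by depth.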
